A study of Mus musculus with 6 samples.

Results

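The cytosolic ribosome is built from ribosomal RNA and one copy of most ribosomal proteins, and the genes of these proteins were described in macrophages kept on a pair of hydrogels. Members were the rows of the deposited table whose symbol is Rpl (large subunit) or Rps (small subunit) followed by a number with or without the letter a, x or l, or by a, p0, p1 or p2. The rule matched 83 of 56691 genes, of which 51 belonged to the large subunit and 32 to the small subunit. The 6 libraries came from WT cells of a mouse macrophage line, spelled RAW246.7 in the labels. LPS, a lipid of the bacterial outer membrane that macrophages sense, had been given to all of them first. Culture then lasted 24 h, on MSA-DA hydrogels (3 libraries) or on MSA-ZW hydrogels (3 libraries). The series concerns fibrin networks that form on macroporous hydrogels with different protein absorption, and how they bear on macrophage function. Both groups shared the line and the LPS, and no group without LPS or without a gel was used here, so each value below compares the gels within LPS-pretreated cells of 1 line.

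Ribosomal proteins are made in the cytoplasm, imported into the nucleolus and assembled there on ribosomal RNA. Copies that are not assembled are degraded. In mammals these mRNAs begin with a run of pyrimidines, the 5' terminal oligopyrimidine or TOP motif, through which mTORC1 and Larp1 set their translation and their stability together, and in macrophages LPS is one of the signals that reaches mTORC1.

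The 83 members lay on 19 chromosomes, with 14 on chromosome 7, 4 on the X and 0 on the Y. A test was possible for 78 of them, 47 of the large and 31 of the small subunit; the other 5 had too few reads. Library totals were 14374912, 18346615 and 15812239 counts on MSA-DA, against 16498956, 16347934 and 18193026 counts on MSA-ZW. The line carried macrophage markers in every library: Cd68 was at 582 to 612 CPM (counts per fixed library total, the totals being scaled by the trimmed mean of M-values) and Csf1r at 935 to 1086 CPM, while Mertk had 1 to 3 counts. Of the markers of other cells, Cd3d and Epcam had 0 counts in all 6 libraries and the highest was S100a8 with 19 to 28 counts. Nothing in the labels says that replicates were separate cultures, so p-values measure the spread between these libraries. In bulk RNA, fewer cells of a kind and less of an mRNA per cell cannot be told apart.

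The median member of the family was slightly lower on MSA-DA than on MSA-ZW, and no tested member differed by more than 1.2-fold. Of 78 tested members, 14 fell and 1 rose on MSA-DA (edgeR quasi-likelihood test, Benjamini-Hochberg adjusted p below 0.05 over all 12467 tested genes). That is 19.2% of the members, beside 13.4% of all tested genes called in either direction. By direction, 17.9% of members fell, beside 6.5% of all tested genes, and the background for a rise was 6.92%. Genes with many counts were called more often: among the 2421 tested genes that averaged 100 CPM or more, 14.3% fell and 16.6% rose, 30.9% in all. Of the 67 members at or above 100 CPM, 13 fell, which is 19.4%, and 0 rose (3 at an unadjusted p below 0.05, and 0 by DESeq2). The share of members that fell was thus nearer to that of genes with at least 100 CPM than to that of all genes. Beyond this floor, counts were not matched.

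The differences were small and mostly of 1 sign. The log2 difference (MSA-DA minus MSA-ZW) was below 0 in 55 of 78 members and above 0 in 23, with a median of -0.034 and a range of -0.23 (Rps10) to 0.12 (Rpl30). Values below 0 were held by 6199 of all 12467 tested genes and by 1169 of the 2421 with at least 100 CPM. The median over all tested genes was 0.00085, and over those with at least 100 CPM 0.0054. The members that passed the test differed 1.05-fold to 1.17-fold, and 4 members, Rps10, Rpl36 and Rpl15 among them, differed by more than 1.1-fold. Replicates were close: the median standard error of a member's log2 difference was 0.030, and the median coefficient of variation was 1.9% on MSA-DA, against 3.42% on MSA-ZW. The spread was larger on MSA-ZW in 62 of 78 members.

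**Figure D1:**
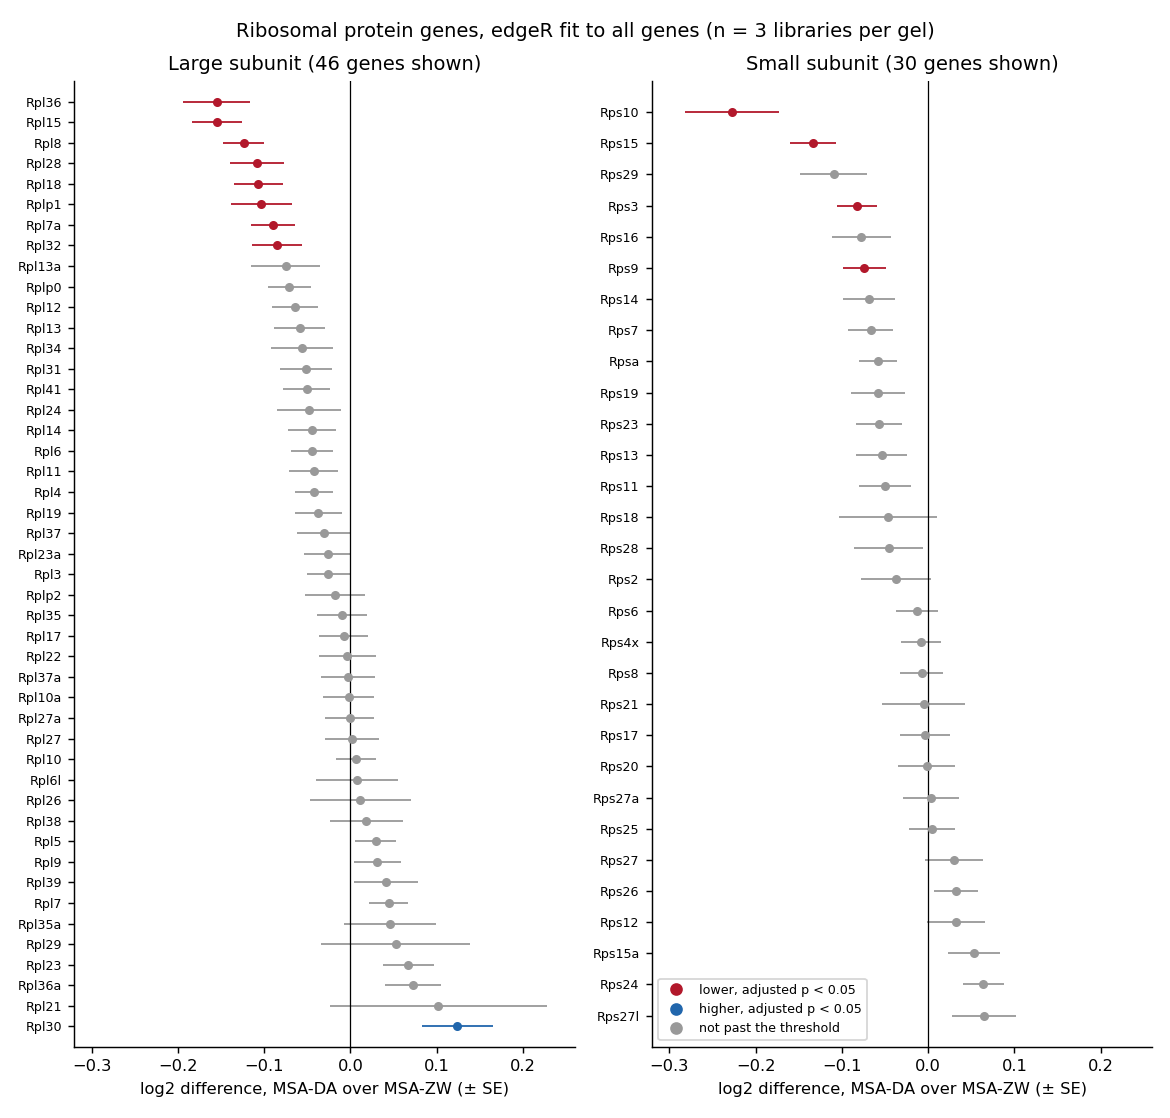
Fitted log2 difference (MSA-DA minus MSA-ZW) with its standard error for 76 of the 78 tested members, by subunit, with members that passed the adjusted p threshold of 0.05 marked. Most points lie just left of 0, from -0.23 for Rps10 to 0.12 for Rpl30.

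The groups did not overlap, meaning that every MSA-DA library lay below every MSA-ZW library or the reverse, in 17 members that were lower and 2 that were higher. This is 24.4% of the members, beside 28.4% of all tested genes and 47.4% of those with at least 100 CPM. By direction, the members that were lower made up 21.8%, beside 13.7% of all tested genes, and the background for higher was 14.7%. Among genes with at least 100 CPM, 23.9% of the 67 members were lower in this sense, beside 21.6% of the genes, and the background for higher was 25.8%. Among the 14 members that fell, MSA-ZW replicate 3 was the highest library for 13 and the lowest library was always one on MSA-DA. Across all 78 members, MSA-ZW replicate 3 was the highest library for 41, while MSA-ZW replicate 1 was the lowest for 32. The median deviation of members from their mean log2 CPM was -0.031 in MSA-ZW replicate 1, below every MSA-DA library (-0.011, -0.026 and -0.022). It was 0.024 and 0.048 in MSA-ZW replicates 2 and 3. The median log2 difference of the family was -0.048 without MSA-ZW replicate 1 and -0.015 without MSA-ZW replicate 3.

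**Figure D2:**
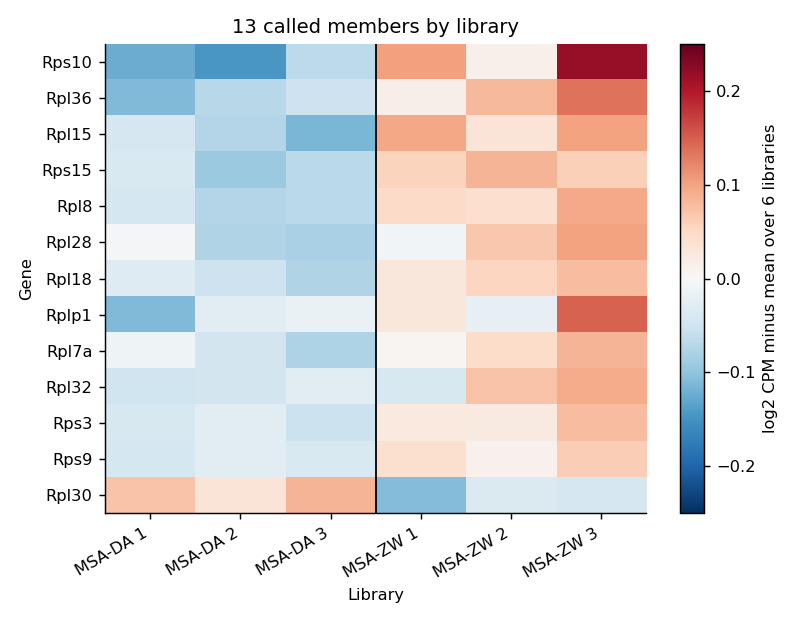
Deviation of each library from the gene's mean over the 6 libraries (log2 CPM) for 13 of the members that passed the test, with the 3 MSA-DA libraries left of the 3 MSA-ZW libraries. For the 12 shown that fell, MSA-DA libraries are below the mean, and MSA-ZW replicate 3 is the highest library for 11 of them.

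The start of the transcripts carries the feature by which the family is known to be regulated. RefSeq promoters of GRCm38.p6, an older build than that of the counts, were matched by symbol for 61 of 83 members. A run of C followed by at least 4 of C or T, searched on the strand of the gene within 15 bases on either side of the annotated start, was present in at least 1 promoter of 42 of 61 members (68.9%), against 40.3% of 27025 genes with a promoter. Exactly at the annotated start it was present for 14 members (23%), against 3.01% of genes. Among members that fell it was present for 6 of 8 with a promoter, and among those not called for 32 of 49 (65.3%). The windows of the members that fell and have a promoter, and of Rpl4, Rpl35 and Rpsa, which did not pass, are shown in lower case with each such run in capitals, so that calls can be set beside the motif; the annotated start is base 16, and each strand is that of the named build.
Rpl7a (GRCm38.p6 chr2:26910792-26910821, plus strand): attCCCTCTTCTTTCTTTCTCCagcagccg
Rpl15 (GRCm38.p6 chr14:18270972-18271001, minus strand): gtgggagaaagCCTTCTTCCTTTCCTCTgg
Rpl18 (GRCm38.p6 chr7:45718056-45718085, plus strand): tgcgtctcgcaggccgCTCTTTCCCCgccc
Rpl28 (GRCm38.p6 chr7:4792950-4792979, plus strand): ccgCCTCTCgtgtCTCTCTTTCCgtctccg
Rps10 (GRCm38.p6 chr17:27635230-27635259, minus strand): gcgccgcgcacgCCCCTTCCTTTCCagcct
Rps15 (GRCm38.p6 chr10:80292416-80292445, plus strand): cccggcagagctcgcgataactgcgcaagc
Rps3 (GRCm38.p6 chr7:99483695-99483724, minus strand): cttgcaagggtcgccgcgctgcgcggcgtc
Rps9 (GRCm38.p6 chr7:3704026-3704055, plus strand): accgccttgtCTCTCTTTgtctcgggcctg
Rpl4 (GRCm38.p6 chr9:64173372-64173401, plus strand): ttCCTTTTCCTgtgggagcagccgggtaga
Rpl35 (GRCm38.p6 chr2:39005117-39005146, minus strand): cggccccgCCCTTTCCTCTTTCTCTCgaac
Rpsa (GRCm38.p6 chr9:120127751-120127780, plus strand): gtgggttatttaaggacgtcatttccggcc
Among the windows shown, Rpl7a, Rpl15, Rps10 and Rpl35 carry the longest runs, of 19, 17, 13 and 18 bases, and only the first 3 fell on MSA-DA. Most of the 49 members not called are not shown, so run length cannot be compared between calls. Rps15 and Rps3, which fell, and Rpsa, which did not pass, hold no such run in this window. A match is a description of letters around an annotated start and says nothing of where transcription began in these cells.

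Of the large subunit, 9 of 47 tested members fell on MSA-DA, which is 19.1%, and 1 rose. Beside this, 6.5% of all tested genes fell, and 14.3% of those with at least 100 CPM. Rpl8, which sits near the peptidyl transferase centre and has a bacterial counterpart, had 709.9, 696 and 698 CPM on MSA-DA, against 757, 754 and 781 CPM on MSA-ZW (log2 difference -0.12, SE 0.024, adjusted p = 0.000393; ENSMUSG00000003970, GRCm39 chr15:76788278-76790514, plus strand). All 3 MSA-DA libraries were below all 3 MSA-ZW libraries, and its call was lost under the GC and length correction described below (log2 difference -0.051, adjusted p = 0.133 in the edgeR test). Rpl15, needed early in assembly of the large subunit and one of the genes altered in human Diamond-Blackfan anaemia, had 326, 319 and 310.0 CPM on MSA-DA, against 359, 343 and 359.9 CPM on MSA-ZW (log2 difference -0.15, SE 0.029, adjusted p = 0.000284; ENSMUSG00000012405, GRCm39 chr14:4198305-4201873, plus strand). Its groups were also separate, and it passed under each of the 18 other settings tried.

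Of the 44 tested members of both subunits without a bacterial counterpart, 9 fell (20.5%, beside 6.5% of all tested genes) and 1 rose. Rpl18, Rpl36, Rpl7a, Rpl28 and Rpl32 are 5 large subunit proteins among those 9, named because they fell. Rpl36 was the lowest of these in counts and the furthest apart, with 97.1, 99.9 and 101 CPM on MSA-DA, against 106, 111 and 115 CPM on MSA-ZW (log2 difference -0.16, SE 0.038, adjusted p = 0.00536; ENSMUSG00000057863, GRCm39 chr17:56920416-56921243, plus strand). Its call was lost after the GC and length correction (log2 difference -0.050, adjusted p = 0.454 in the edgeR test). Rpl18 had 296, 292 and 287 CPM on MSA-DA, against 309, 314 and 319 CPM on MSA-ZW (log2 difference -0.11, SE 0.028, adjusted p = 0.00933; ENSMUSG00000059070, GRCm39 chr7:45364881-45370260, plus strand). In both genes the highest MSA-DA library was below the lowest MSA-ZW library. Rpl7a had 672, 657 and 642 CPM on MSA-DA, against 679, 699 and 718 CPM on MSA-ZW (log2 difference -0.089, SE 0.026, adjusted p = 0.0165), without overlap. Rpl28 had 278, 265 and 264 CPM on MSA-DA, against 278, 292 and 299 CPM on MSA-ZW (log2 difference -0.11, SE 0.031, adjusted p = 0.0167) and Rpl32 had 481, 483 and 489 CPM on MSA-DA, against 485, 524 and 531 CPM on MSA-ZW (log2 difference -0.085, SE 0.029, adjusted p = 0.0465). In both Rpl28 and Rpl32, MSA-ZW replicate 1 lay among the MSA-DA libraries, and Rpl32 passed only without MSA-ZW replicate 1 among the 6 fits that left out 1 library (edgeR adjusted p 0.0801 to 0.154 in the others). Rpl28 lost its call without MSA-DA replicate 2 (adjusted p = 0.102), MSA-DA replicate 3 (0.0914) or MSA-ZW replicate 2 (0.0514). Rpl7a lost it without MSA-DA replicate 2 (0.07) or replicate 3 (0.108), and Rpl18 without MSA-DA replicate 3 (0.0602).

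Rpl30 was the only member that rose on MSA-DA. It had 82.1, 79.9 and 82.9 CPM on MSA-DA, against 72.5, 76.2 and 75.9 CPM on MSA-ZW (log2 difference 0.12, SE 0.042, adjusted p = 0.0429; ENSMUSG00000058600, GRCm39 chr15:34440651-34443786, minus strand), without overlap between the groups. This call was the least stable of the 15, passing under 3 of the 18 other settings and, of the 6 fits without 1 library, only in that without MSA-ZW replicate 3 (edgeR adjusted p 0.0691 to 0.181 in the others). Of the reads on Rpl30 and its copies, 58.6% were on copy rows, described below with the levels.

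The stalk of the large subunit recruits translation factors and is made of Rplp0, which anchors it, and of the acidic proteins Rplp1 and Rplp2. Rplp1 fell, with 225, 238 and 239 CPM on MSA-DA, against 247.0, 239 and 268 CPM on MSA-ZW (log2 difference -0.10, SE 0.035, adjusted p = 0.0464), although MSA-DA replicate 3 was above MSA-ZW replicate 2. Its call was lost without any 1 of the MSA-DA libraries (edgeR adjusted p 0.0564 to 0.234) and without MSA-ZW replicate 3 (0.281). Rplp0 had 549, 541 and 546 CPM on MSA-DA, against 578, 565 and 575 CPM on MSA-ZW (log2 difference -0.071, SE 0.025, adjusted p = 0.0531). Its groups did not overlap but its adjusted p was above the threshold. Rplp2 had 156, 167 and 156 CPM on MSA-DA, against 158, 169 and 160.0 CPM on MSA-ZW (log2 difference -0.018, SE 0.035, adjusted p = 0.81), with the libraries of both gels intermixed.

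The listed proteins on the path of the nascent chain did not pass the edgeR test. The polypeptide exit tunnel is lined by Rpl4, Rpl17 and Rpl39, and 0 of these 3 passed; around its exit lie Rpl23a, Rpl35, Rpl26, Rpl19 and Rpl31, of which 0 of 5 passed. The same count was 0 at an unadjusted p below 0.05 and by DESeq2 for both groups. Beside 13.4% of all tested genes called, 0 in groups this small does not set these proteins apart. Their log2 difference was below 0 in 2 of the 3 and in 4 of the 5. Rpl4 had 1686, 1690.0 and 1674 CPM on MSA-DA, against 1666, 1752 and 1782 CPM on MSA-ZW (log2 difference -0.042, SE 0.022, adjusted p = 0.221), and MSA-ZW replicate 1 was the lowest library. Rpl39, among the smallest of the proteins, had 162, 171 and 171 CPM on MSA-DA, against 153, 164 and 173 CPM on MSA-ZW (log2 difference 0.041, SE 0.037, adjusted p = 0.54). Rpl19 had 752, 734 and 745 CPM on MSA-DA, against 719, 776 and 792 CPM on MSA-ZW (log2 difference -0.037, SE 0.028, adjusted p = 0.438) and Rpl23a had 544, 531 and 505 CPM on MSA-DA, against 526, 537 and 545 CPM on MSA-ZW (log2 difference -0.026, SE 0.027, adjusted p = 0.609); the groups overlapped in both.

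Rpl5 and Rpl11 join the 5S ribosomal RNA in a particle that, when ribosome assembly fails, binds Mdm2 and stabilises p53. Neither passed the test or an unadjusted p of 0.05. Rpl5 had 972, 969 and 959 CPM on MSA-DA, against 916, 961 and 964 CPM on MSA-ZW (log2 difference 0.029, SE 0.023, adjusted p = 0.481). Rpl11 had 433, 416 and 412 CPM on MSA-DA, against 417, 446 and 436 CPM on MSA-ZW (log2 difference -0.043, SE 0.029, adjusted p = 0.379). Their log2 differences had opposite signs and the groups overlapped in both. Rpl13a, which in human monocytes leaves the ribosome after interferon gamma to silence inflammatory mRNAs, had 155, 151 and 150.0 CPM on MSA-DA, against 151, 154 and 175 CPM on MSA-ZW (log2 difference -0.075, SE 0.040, adjusted p = 0.24); only MSA-ZW replicate 3 stood above the rest.

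Of the small subunit, 5 of 31 tested members fell, which is 16.1%, and 0 rose (1 at an unadjusted p below 0.05, and 0 by DESeq2). The share that fell was 6.5% over all tested genes and 14.3% over those with at least 100 CPM. Rps15, a protein of the head near the decoding centre, had 416, 400.2 and 407 CPM on MSA-DA, against 444, 453 and 445 CPM on MSA-ZW (log2 difference -0.13, SE 0.027, adjusted p = 0.000548; ENSMUSG00000063457, GRCm39 chr10:80128287-80129948, plus strand), with both groups narrow and apart. After the GC and length correction its log2 difference was -0.024 and the call was lost (adjusted p = 0.653 in the edgeR test). Rps10, another head protein, which the quality control ligase Zfp598 marks with ubiquitin on stalled ribosomes, had the largest difference of the family, 45.8, 45.2 and 47.8 CPM on MSA-DA, against 53.6, 50.4 and 58.1 CPM on MSA-ZW (log2 difference -0.23, SE 0.054, adjusted p = 0.00387; ENSMUSG00000052146, GRCm39 chr17:27849392-27855643, minus strand). Its highest MSA-DA library was below its lowest MSA-ZW library, and its call was lost after the GC and length correction (log2 difference -0.15, adjusted p = 0.0571 in the edgeR test). Rps3 and Rps9 line the channel through which mRNA enters. Rps3 had 858, 865 and 849.5 CPM on MSA-DA, against 897, 896 and 930.1 CPM on MSA-ZW (log2 difference -0.083, SE 0.023, adjusted p = 0.0138; ENSMUSG00000030744, GRCm39 chr7:99127103-99132945, minus strand) and Rps9 had 542, 547 and 543 CPM on MSA-DA, against 574, 562 and 582 CPM on MSA-ZW (log2 difference -0.074, SE 0.025, adjusted p = 0.045). Both were separate between the gels, by a wider margin in Rps3. Of the fits without 1 library, Rps9 passed only without MSA-ZW replicate 2 (edgeR adjusted p 0.0703 to 0.111 in the others), while Rps3 lost its call without MSA-DA replicate 3 (0.0679).

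Other small subunit proteins with known roles did not pass the test. Rps6, the phosphorylation target of S6 kinase, had 916, 891 and 888 CPM on MSA-DA, against 881, 905 and 932 CPM on MSA-ZW (log2 difference -0.013, SE 0.024, adjusted p = 0.801). Rps4x, encoded on the X chromosome, had 905, 939 and 929 CPM on MSA-DA, against 907, 939 and 943 CPM on MSA-ZW (log2 difference -0.0081, SE 0.023, adjusted p = 0.881). Rps27a, made as a fusion with ubiquitin, had 658, 686 and 708 CPM on MSA-DA, against 636, 684 and 728 CPM on MSA-ZW (log2 difference 0.0034, SE 0.032, adjusted p = 0.967). In all 3 the libraries of the gels were intermixed. Rpsa, which besides its place in the small subunit is known as a laminin receptor, had 1288, 1297 and 1289 CPM on MSA-DA, against 1355, 1302 and 1377 CPM on MSA-ZW (log2 difference -0.058, SE 0.022, adjusted p = 0.0761), so its groups were separate without a call. Rps7, Rps23, Rps13 and, in the large subunit, Rpl34 were also lower on MSA-DA in all libraries without passing (adjusted p 0.0872, 0.174, 0.264 and 0.345 in the edgeR test), and Rps24 was higher in all of them (log2 difference 0.064, SE 0.024, adjusted p = 0.0712 in the edgeR test); these 5 are named because their groups did not overlap.

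The rule also matched rows whose symbol ends in l, some of them paralogs that other tissues use. Rpl10l and Rpl39l, known from male germ cells, and Rps4l had 0 counts in every library, which allows at most 3 counts or 0.164 to 0.209 CPM per library (counting error only). Rpl3l, a paralog of heart and skeletal muscle, had 3, 1 and 1 counts on MSA-DA, against 2, 3 and 1 counts on MSA-ZW. Rpl32l had 11, 13 and 9 counts on MSA-DA, against 5, 6 and 6 counts on MSA-ZW, too few for the filter of the main test, although the groups did not overlap. Its counts allowed a test only under other settings: the log2 difference was 0.56 and the adjusted p 0.018 with limma on log2(FPKM + 1), while edgeR without a filter gave an adjusted p of 0.337. Rps27l, a widely expressed paralog of Rps27 that responds to p53, was tested, with 116, 115 and 123 CPM on MSA-DA, against 109, 117 and 113 CPM on MSA-ZW (log2 difference 0.065, SE 0.037, adjusted p = 0.291). The groups overlapped. Rpl6l, matched by the rule for its symbol and named because it is the other tested row of this kind, had 72.8, 73.5 and 66.2 CPM on MSA-DA, against 69.7, 74.1 and 67.8 CPM on MSA-ZW (log2 difference 0.0077, SE 0.047, adjusted p = 0.945), also with overlap. No principal coding transcript was found for Rpl6l or Rpl32l, and whether their reads came from Rpl6 and Rpl32 mRNA was not tested.

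Grouped by descent, 33 tested members are proteins with a bacterial counterpart and 44 have none, Rps27l left aside. Of the first group 5 fell and 0 rose (1 at an unadjusted p below 0.05, and 0 by DESeq2), with a median log2 difference of -0.043. Of the second group 9 fell and 1 rose, with a median of -0.015. Members that fell made up 15.2% of the first group and 20.5% of the second. Over all tested genes 6.5% fell, and over those with at least 100 CPM 14.3%. The first group thus had the lower median and the smaller share of calls, and no test of that difference was made.

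Large and small subunit genes had medians of the same sign. The median log2 difference was -0.026 for the large and -0.046 for the small subunit, and no test compares them. With 1 library left out the median ran from -0.045 to -0.012 for the large and from -0.053 to -0.019 for the small subunit, and without MSA-ZW replicate 2 the order turned, with -0.020 for the large and -0.019 for the small subunit. Summed over members, the large subunit had 19283, 19155 and 19055 CPM on MSA-DA, against 19075, 19705 and 20054 CPM on MSA-ZW. The small subunit had 13225, 13283 and 13268 CPM on MSA-DA, against 13210.4, 13517 and 13853 CPM on MSA-ZW. In both sums MSA-ZW replicate 1 lay with the MSA-DA libraries and MSA-ZW replicates 2 and 3 lay above them.

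The ratio of large to small subunit counts was 1.46, 1.44 and 1.44 on MSA-DA, against 1.44, 1.46 and 1.45 on MSA-ZW. Its mean was 1.45 ± 0.011 on MSA-DA, against 1.45 ± 0.0072 on MSA-ZW (SD, n = 3 each), a log2 difference of -0.0044 that was smaller than the spread within either gel. Over all members, the family took 3.23 ± 0.0072% of counts on MSA-DA, against 3.32 ± 0.080% on MSA-ZW (SD, n = 3 each). The library values were 3.236%, 3.232% and 3.222% on MSA-DA, against 3.238%, 3.320% and 3.398% on MSA-ZW, so the groups were separated only by the margin between MSA-DA replicate 1 and MSA-ZW replicate 1. Mitochondrially encoded transcripts took 3.11 ± 0.014% of counts on MSA-DA, against 2.74 ± 0.027% on MSA-ZW. With those and ribosomal-RNA-like genes left out of the total, the family's share overlapped between the gels, and 17 members fell, the same 14 among them, and 0 rose.

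**Figure D3:**
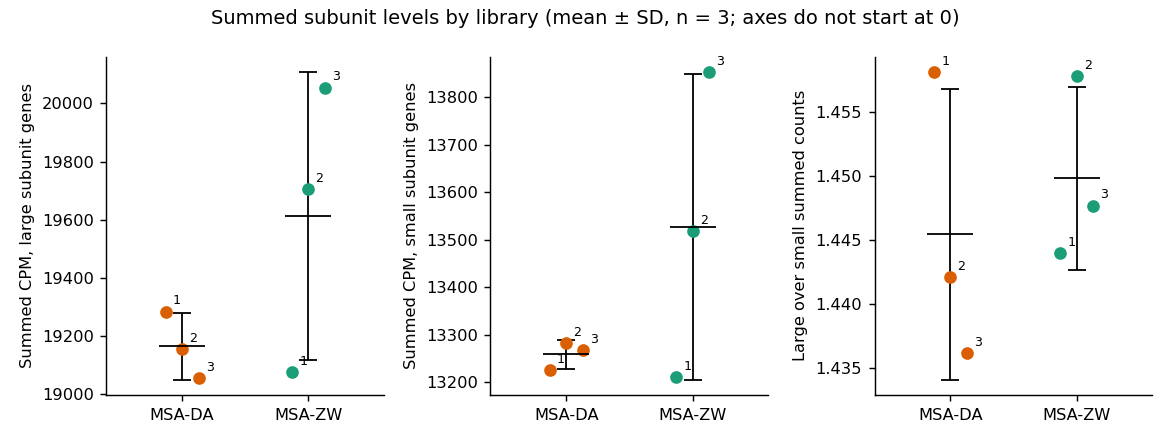
Summed CPM of large and of small subunit members and the ratio of their summed counts in each library (points, numbered by replicate), MSA-DA left of MSA-ZW, with group means ± SD (n = 3); the axes do not start at 0. The ratio stays between 1.44 and 1.46 in all 6 libraries, and MSA-ZW replicate 1 lies with the MSA-DA libraries in each sum.

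Levels between members can be compared only per length, and the deposited FPKM values (counts per kilobase of exonic length, scaled to each library's total) span 296-fold over the 77 tested members that have a principal coding transcript. Rpl4 was the highest of the large subunit with 836 ± 3.7 FPKM on MSA-DA, against 865 ± 29 FPKM on MSA-ZW, followed by Rpl19 with 725 ± 8.7 FPKM on MSA-DA, against 747 ± 37 FPKM on MSA-ZW (SD, n = 3 each). Rpl23a was the next with 619 ± 23 FPKM on MSA-DA, against 634 ± 11 FPKM on MSA-ZW. In the small subunit Rps15 led with 645 ± 12 FPKM on MSA-DA, against 711 ± 6.2 FPKM on MSA-ZW, ahead of Rps6 with 564 ± 9.1 FPKM on MSA-DA, against 572 ± 16 FPKM on MSA-ZW. Rps4x, with 565 ± 11 FPKM on MSA-DA, against 571 ± 12 FPKM on MSA-ZW, could not be told from Rps6 beyond this spread.

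At the low end of the large subunit were Rpl21 with 2.98 ± 0.38 FPKM on MSA-DA, against 2.77 ± 0.58 FPKM on MSA-ZW, Rpl35a with 13.98 ± 0.76 FPKM on MSA-DA, against 13.6 ± 0.42 FPKM on MSA-ZW, and Rpl29 with 18.1 ± 1.0 FPKM on MSA-DA, against 17.6 ± 2.1 FPKM on MSA-ZW. In the small subunit Rps18 had 17.6 ± 0.53 FPKM on MSA-DA, against 18.3 ± 1.1 FPKM on MSA-ZW, Rps10 had 19.9 ± 0.59 FPKM on MSA-DA, against 23.4 ± 1.7 FPKM on MSA-ZW, and Rps28 had 49.5 ± 0.87 FPKM on MSA-DA, against 51.3 ± 1.4 FPKM on MSA-ZW. Except for Rps10, none of these 6 passed the test of the gels: the adjusted p was 0.679 for Rpl21, 0.656 for Rpl35a, 0.770 for Rpl29, 0.671 for Rps18 and 0.532 for Rps28 in the edgeR test. These are proteins of which each ribosome carries one copy, so the low values were set against how the length and the reads were assigned.

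Part of the spread moved with the length used. The exonic length in the deposited table counts every annotated exon of a gene and was a median 2.35 times the length of the shortest principal coding transcript, up to 9.8 times for Rps15a (6270 against 640 bases). Per kilobase of that transcript the range narrowed to 113-fold, and the ratio of the upper to the lower quartile to 2.32, against 3.15 for FPKM. This scale, chosen after the data were seen, uses transcript lengths of the older GENCODE M21 annotation.

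Part of it moved with reads on copy rows. Ribosomal protein mRNAs have been copied back into the genome many times, and such processed copies can take reads of the parent gene when their sequences are near identical. Rows of numbered pseudogenes or predicted genes that carry the same KEGG orthology number as a member were counted as its copies; there were 2094 such rows, 753 of them with reads. For 8 members at least 50% of the reads on member and copies fell on copy rows: 92.9% for Rpl26, 88.8% for Rps2, 73.4% for Rps18, 70.1% for Rpl21, 65.8% for Rpl29, 58.6% for Rpl30, 55.8% for Rps10 and 51.8% for Rplp0. For Rpl26 a single row, Gm15772, held 54625 counts over the 6 libraries, against 4200 counts on Rpl26 itself. For Rps2 the row Rps2-ps10 held 79454 counts, against 10369 on Rps2. These 8 were named by their copy share after the values were seen, and whether such reads came from the copy or from the parent mRNA cannot be told from these counts.

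With all copy rows added to their member, the range of levels per kilobase of principal transcript narrowed further to 34.1-fold. The ratio of the upper to the lower quartile changed little, from 2.32 to 2.25. Rpl26 moved to place 2 of 77 by this scale, from place 71 by FPKM, and Rps2 to place 15 from place 66. Rpl21 stayed at place 77, and Rpl41, among the smallest proteins of the cell, took place 1. Of the other low members, Rpl29 stayed at place 75, Rpl35a went from 76 by FPKM to 74 and Rps10 from 73 to 71. Rps18 went from 74 to 62. Rps28 went from 69 to 59, and was at 58 on the transcript scale before copies were added. The place of the 8 members above in the order of levels is uncertain for this reason.

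The calls between the gels moved less. With copies added, a setting chosen after the data were seen, 18 members fell on MSA-DA, all 14 from the member rows alone plus Rplp0, Rps7, Rps16 and Rps29, and 0 rose. Rps10 held its difference (log2 difference -0.21, SE 0.040, adjusted p = 0.000284 in the edgeR test), and its largest copy, Rps10-ps2, fell too (log2 difference -0.20, SE 0.052, adjusted p = 0.00753). Rpl30 did not: its largest copy Gm12191 had a log2 difference of -0.048 (adjusted p = 0.495), and with copies added the gene had 0.026 (adjusted p = 0.683). Rplp0 passed once its copies were added (log2 difference -0.096, adjusted p = 0.00211), and its largest copy Gm8730 fell (log2 difference -0.11, adjusted p = 0.00424). Of the 54 tested members with under 10% of their reads on copy rows, 12 fell and 0 rose (1 at an unadjusted p below 0.05, and 0 by DESeq2). Those that fell were 22.2%, beside 6.5% of all tested genes and 14.3% of those with at least 100 CPM.

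**Figure D4:**
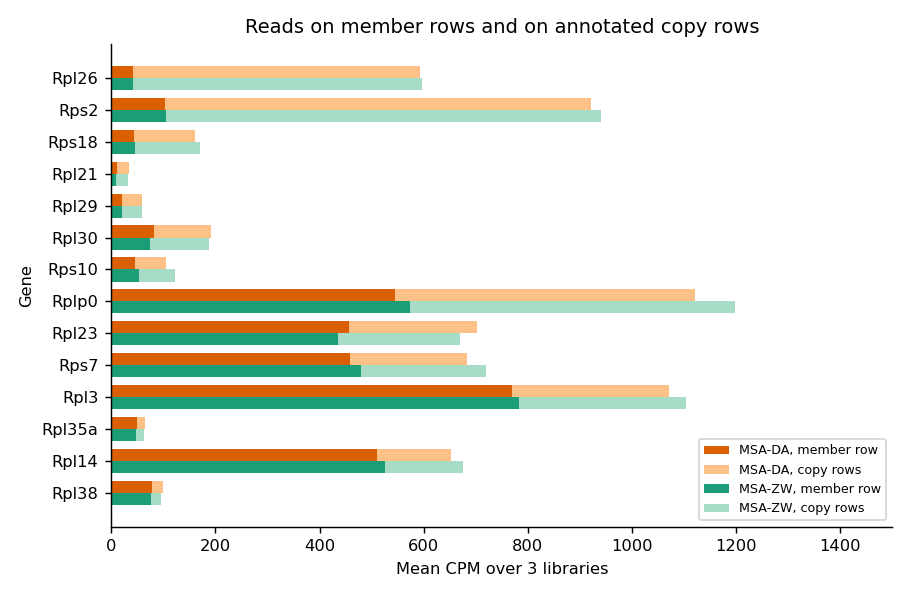
Mean CPM assigned to each member's own row and to its copy rows, MSA-DA above MSA-ZW, for the members with at least 20% of reads on copies. Rpl26 and Rps2 have most of their reads on copy rows on both gels.

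Members of higher GC content tended to be lower on MSA-DA. Spearman's rho of transcript GC content and log2 difference was -0.401 over the 78 tested members, and -0.317 over 12329 tested genes with a GC value, a description across genes that share the same 6 libraries. GC content was a median 52.7% in the 14 members that fell (43.2% to 62.4%), 50.7% in tested members that were not called and 49.1% in all tested genes. After a fit that takes out the trend with GC content and length, 7 members fell and 1 rose. Of the 14, Rpl15 (log2 difference -0.21, adjusted p = 1.9e-07), Rps3, Rpl18 and Rpl7a were among those that passed in that edgeR test; Rps13 and Rps23 joined them, and Rps6 was the member that rose (log2 difference 0.064, adjusted p = 0.0445). Besides Rpl8, Rpl36, Rps15 and Rps10, Rpl28, Rplp1, Rps9 and Rpl32 lost their calls (adjusted p 0.0541 to 0.671). The median log2 difference after the correction was -0.014 for the family, -0.0060 for the large subunit and -0.024 for the small subunit.

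**Figure D5:**
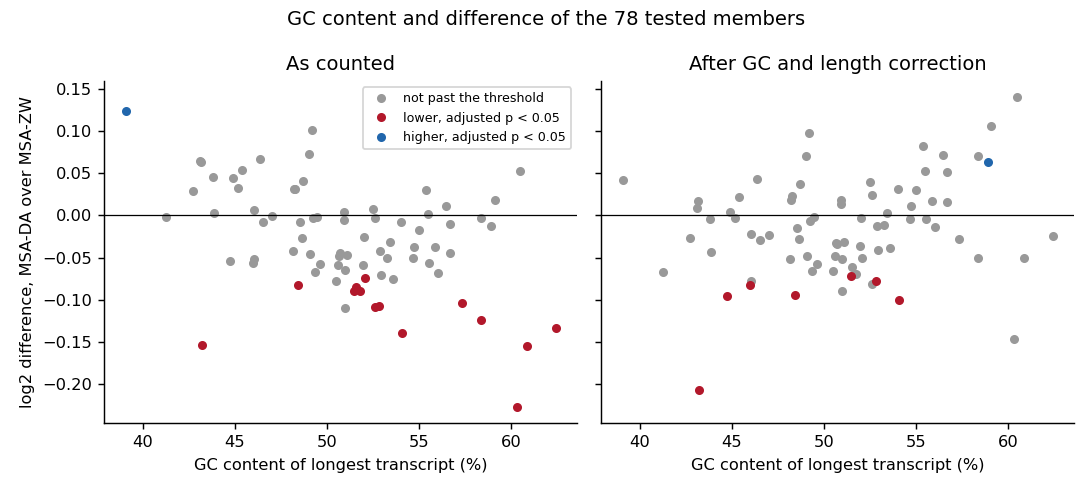
Log2 difference (MSA-DA minus MSA-ZW) of each tested member against the GC content of its longest transcript in percent, coloured by call, as counted (left) and after the GC and length correction (right). As counted, points drift downward with GC content, with a Spearman rho of -0.401 over 78 members.

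Genes that work with the family were counted in the same edgeR test. The background for these counts was 13.4% of all tested genes called (6.5% lower and 6.92% higher), and 30.9% of those with at least 100 CPM. Of 7 listed ribosome genes among those that the symbol rule leaves out, Rack1, a scaffold on the small subunit, fell, with 818 ± 17 CPM on MSA-DA, against 891 ± 28 CPM on MSA-ZW (SD, n = 3 each; log2 difference -0.12, SE 0.025, adjusted p = 0.000619). The rule also leaves out Rps3a1, which was not on this list, so the sums and the ratio of the subunits lack it. Other TOP mRNAs did not share a direction: 3 of 19 fell and 3 rose, 31.6% in all. Their groups did not overlap in 9 that were lower and 5 that were higher. That is 73.7%, beside 28.4% of all tested genes and 47.4% of those with at least 100 CPM. The elongation factors Eef2 (log2 difference -0.12, adjusted p = 1.52e-05) and Eef1a1 (-0.069, adjusted p = 0.000931) fell, while the nucleolar chaperone Npm1 (0.13, adjusted p = 8.97e-07) and the RNA-binding protein Hnrnpa1 (0.12, adjusted p = 0.000161) rose. Of 18 tested regulators of TOP translation, among them Larp1, Mtor and Rptor, 0 passed (1 at an unadjusted p below 0.05, and 0 by DESeq2).

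Of 39 tested ribosome biogenesis genes 3 fell and 5 rose, 20.5% in all beside 13.4% of all tested genes, with a median log2 difference of 0.027. The largest rise was that of Gnl3, the nucleolar GTPase nucleostemin, with 285 ± 7.7 CPM on MSA-DA, against 234 ± 6.7 CPM on MSA-ZW (log2 difference 0.28, SE 0.031, adjusted p = 2.35e-08), and the nucleolar proteins Ncl and Nop56 rose as well. Bysl, needed for the small subunit, fell (log2 difference -0.17, adjusted p = 0.0127). Of 12 quality control genes 2 fell (Gcn1 and Edf1) and 2 rose (Nemf and Abce1), 33.3% in all of a short list. Of 9 chaperones of single ribosomal proteins 0 passed (2 at an unadjusted p below 0.05, and 0 by DESeq2). Mitochondrial ribosomal proteins, which serve the separate ribosome of that organelle, had 1 lower (Mrps23) and 2 higher (Mrps6 and Mrpl19) of 77 tested, 3.9% in all, with a median of -0.012. Their counts were given beside the family's without a test of the difference.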

How the data were processed

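RNA was extracted with Trizol and 1.3 µg of total RNA was used per library, per the labels' protocols. The tools in the submitters' processing notes were HISAT2 2.2.1, cutadapt 1.9.1 and bcl2fastq 2.20.0.422, with the build GRCm39. The tool, strand setting and annotation behind the counting were not given in the sources used here. Reads of near-identical copies, overlapping and antisense genes therefore cannot be separated. A single table held, per the file headers, the raw count of each gene and its FPKM in each library. Each deposited FPKM was within 0.005 of the count per kilobase of exonic length scaled to the library's total.

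Samples were grouped by title. MSA-DA (3 libraries) was compared with MSA-ZW (3) by edgeR 4.0.16 in R 4.3.3 on the deposited counts (TMM, filterByExpr, then glmQLFit and glmQLFTest with no covariate), with Benjamini-Hochberg adjusted p-values and a threshold of 0.05 over 12467 genes; the fit was tested on simulated data. CPM uses TMM-scaled totals, and the common biological coefficient of variation was 3.04%. Counts of every pair of libraries differed beyond sampling noise, and each library was taken as 1 sample. Library preparation can add such spread too, so this does not show that they were separate cultures. Lists and summed levels were described without a test. Every interval and floor covers counting error only. GC content came from the longest GENCODE M21 transcript of each gene ID (83 of 83 members), and principal coding transcripts were found for 80.

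The members and lists were chosen with earlier results of these data known. Members named with values are those called, the 3 highest and 3 lowest tested by mean FPKM in each subunit, those with the largest and smallest log2 difference in each subunit, and the stalk, 5S particle, Rps6, Rpl13a, Rpsa, Rps27a, Rps4x, Rpl39 and paralogs; from other lists, up to 4 called genes with the smallest adjusted p. Some of these genes are not reported here, though they stay in the counts and medians. Any other name was chosen after its values were seen, and the text says why. Alternatives were DESeq2 1.42.0, edgeR's RLE size factors, TMM factors from other genes, no filter on low counts, limma 3.58.1 on log2(FPKM + 1) or log2(FPKM + 0.1) for genes with at least 1 FPKM in 3 libraries, totals without mitochondrial and ribosomal-RNA-like genes, a GC and length correction (loess), a replicate block, copy rows and leaving out each library.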

Additional observations from a re-analysis of the deposited data

How the results depend on the processing

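The median log2 difference of the family and of each subunit stayed below 0 under all 18 alternatives, but with the GC and length correction came to -0.014 for the family, against -0.034 without it. Over all genes, 1673 passed the edgeR test, against 1077 with DESeq2, 906 with limma on log2(FPKM + 1), 895 with limma on log2(FPKM + 0.1) and 1001 to 1654 with 1 library left out. Of the members, 14 fell, against 11 with DESeq2, 9 with limma on log2(FPKM + 1) and 7 with the GC and length correction. With 1 library left out, 7 (without MSA-DA replicate 3) to 18 (without MSA-ZW replicate 1) fell. Rplp1 (adjusted p = 0.0991) and Rpl32 (0.078) were among those that DESeq2 did not call. In the large subunit 9 fell, against 4 with the GC and length correction and 4 to 13 with 1 library left out; in the small subunit 5 fell, against 3 with limma on log2(FPKM + 1), 3 with the GC and length correction, 8 with copy rows (chosen after seeing the data) and 3 to 7 with 1 library left out. The 1 member that rose, Rpl30, was lost, leaving 0, with DESeq2, TMM factors from other genes, no filter, no mitochondrial and ribosomal-RNA-like genes and all copy rows, and the count was 0 to 2 with 1 library left out. The member that rose was Rpl32l, not Rpl30, in both limma fits and Rps6 with the GC and length correction. The log2 ratio of the subunits differed by -0.0044 from summed counts and by 0.0095 from mean log2 CPM; the share of the family differed by -0.089 percentage points of counts and by -0.21 percentage points of FPKM. The cause of these shifts was not tested. The fits without 1 library also rest on fewer samples.

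Deviations of same-numbered libraries had correlations of 0.011, 0.017 and -0.0025, beside -0.037 to 0.025 for libraries of different number. Such values over all genes cannot exclude shared rounds of culture or preparation, so whether the numbers mark pairs is not known. With a replicate block, 12 of the 14 members fell and 0 rose, 3 of them in the small subunit; with the block and the GC and length correction together, 6 fell, 3 in each subunit, and 0 rose.

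Of the comparisons of named members, 493 kept direction and call, 77 lost the call, 13 gained it and 29 changed sign. All sign changes were of members that had not passed. With the GC and length correction, and with the block added to it, the log2 differences were 0.011 and 0.012 for Rpl19, -0.0045 and -0.0036 for Rpl35a, 0.064 and 0.064 for Rps6, 0.030 and 0.027 for Rplp2, -0.027 and -0.027 for Rpl5 and -0.043 and -0.042 for Rps27a. Rps27a was also at -0.0021 with TMM factors from other genes, -0.0026 with limma at either pseudocount and -0.0018 without mitochondrial and ribosomal-RNA-like genes, and Rpl29 at -0.026 with copy rows. With 1 library left out, the ranges were -0.042 to 0.25 for Rpl21, -0.0011 to 0.079 for Rpl35a, -0.042 to 0.13 for Rpl29, -0.029 to 0.0021 for Rps4x, -0.036 to 0.0071 for Rps6, -0.058 to 0.0086 for Rplp2, -0.048 to 0.052 for Rps27a and -0.0057 to 0.086 for Rpl39. Rpl3l, Rpl32l and the 3 members at 0 counts had too few reads for the filter of the main test.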
